A study of Bos taurus with 8 samples.

Results

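The genes described here are 36 genes of glycolysis and of the cellular response to low oxygen, measured in bovine granulosa cells cultured with or without follicle-stimulating hormone (FSH). They comprise 18 enzymes of glycolysis and its regulation, 4 carriers of glucose or lactate, 2 kinases that control the entry of pyruvate into mitochondria, 4 hypoxia-inducible factors or their hydroxylases, and 8 targets of these factors. The members were chosen by gene symbol, as every probe that the platform annotation assigns to one of the symbols. This gave 59 of the 43794 gene probes and 34 of the 36 genes, since no probe carried the symbols GAPDH or PKM. Of the 59 probes, 55 were bright enough to test, and each of the 34 genes kept at least 1 of them. The 4 probes that were too dim belong to CA9 (2 probes), PDK1 and PDK4.

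Glycolysis splits glucose into pyruvate in the cytosol, and lactate dehydrogenase turns pyruvate into lactate, which monocarboxylate carriers export. Hypoxia-inducible factors (HIF) are transcription factors that prolyl hydroxylases mark for destruction while oxygen is present, and their classical targets include glucose carriers, glycolytic enzymes and the angiogenic factor VEGFA. Granulosa cells surround the oocyte in a layer of the follicle that has no blood vessels, and their release of lactate and pyruvate is a known source of fuel for the oocyte. FSH acts on these cells through a receptor coupled to cyclic AMP.

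Each FSH library came from cells that spent 48 h in culture and received FSH at 1 ng/ml for the final 4 h, and each control library came from cells cultured for the same 48 h without the hormone. The cells of both groups were primary cells from follicles of 2 to 6 mm, dissected from slaughterhouse ovaries and passed through a 104 µm mesh, and the labels give neither the age nor the breed of the animals. The 8 two-colour arrays each received 1 FSH and 1 control library, and they form 4 dye-swap pairs and give replicates 1 to 4 of each group. RNA had been amplified in 2 rounds, and the labels do not state whether the FSH and control cultures of the same number shared their ovaries. The p-values over replicate means therefore measure the spread between these cultures, which may be technical in part, and the number of arrays limits the precision.

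Ratios are given as log2 of FSH over control with the standard error (SE) of limma over n = 4 replicates, and levels as log2 intensity on a scale common to the arrays. Under the same probe names the deposited series-wide ratio table does not follow the scanner tables used here, so every gene name below rests on the probe names in the scanner tables. Each array held between 71.4% and 84.2% of gene probes above its negative control spots. Of 12 granulosa markers, 11 lay above background in all channels of both groups, among them FSHR, CYP19A1, INHA and AMH, whereas FOXL2 was above background in 5 of 8 FSH channels and 7 of 8 control channels. Summed over 6 fibroblast and stroma markers, the linear level was 45276, 20288, 21449 and 18623 in FSH replicates 1 to 4 and 33915, 10459, 23781 and 20329 in control replicates 1 to 4, so replicate 1 was highest in both groups. The leukocyte marker PTPRC stood at 7.26, 7.35, 7.58 and 10.87 in FSH replicates 1 to 4 and at 7.28, 7.32, 7.48 and 9.52 in control replicates 1 to 4, so replicate 4 was highest in both groups. The summed level of the 6 tested immune markers ranged from 1053 to 2943 in FSH libraries and from 860 to 1919 in control libraries, with the highest value of each group in replicate 4, and PTPRC carried most of that height. The T-cell marker CD3E was at 7.08 in FSH replicate 4 and 7.12 in control replicate 4, close to its other libraries. The myeloid gene LYZ was highest in replicate 1, at 8.79 in the FSH and 8.29 in the control library. In FSH and control replicate 4 it was at 7.01 and 7.02. CD68 was at 8.47 in FSH replicate 4, below the 8.92 of FSH replicate 1. Among control libraries CD68 was highest in replicate 4, at 8.83. CD163 and CD14 were highest in replicate 4 of both groups. CD163 was at 8.15 and 8.07 in FSH and control replicate 4, and CD14 at 7.36 and 7.60. All tested endothelial, erythrocyte and oocyte markers averaged below 9 on the log2 scale, with the endothelial KDR at a ratio of 0.81. Summed smooth muscle markers were at 9413, 5710, 6963 and 6294 in FSH replicates 1 to 4, against 13017, 7559, 7161 and 7562 in control replicates 1 to 4. The sum was lower with FSH in every pair, and ACTA2, lower in every pair, made up most of it. DES was higher with FSH in every pair, and CNN1, TAGLN and MYH11 had mixed signs. DES stood at 9.72 in FSH and 9.17 in control replicate 4, against 6.88 to 6.99 in all other libraries. The brighter ACTA2 and CNN1 did not share this height. ACTA2 was lowest among FSH libraries in replicate 4, at 12.13, and CNN1 was highest in replicate 1, at 10.70 with FSH and 11.08 in control. Summed theca markers were lower with FSH in every pair, at 1368 to 1577 with FSH and 1412 to 2042 in control. These markers did not share 1 direction, and the median ratio of the 6 was -0.0042. PTCH1, the brightest, was at a ratio of -0.50 and NR2F2 at -0.36, whereas TCF21 was at 0.29 and INSL3 at 0.10. CYP17A1 and LHCGR were at -0.01 and 0.0022. LHCGR was above background in 2 of 8 FSH and 2 of 8 control channels. The part of these cell types in the ratios below was not tested. Because these are bulk libraries, fewer cells of a type and less RNA per cell cannot be told apart in any value below.

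The question put to the arrays was whether transcripts of this pathway differ after a short exposure to FSH. HK2, the hexokinase that commits glucose to the pathway in insulin-sensitive and proliferating cells, was 2.46-fold higher with FSH, the largest mean difference of the 34 genes. The glucose carrier SLC2A1 was at 1.51-fold and the stress-response gene NDRG1 at 1.86-fold, while most enzymes between glucose 6-phosphate and lactate had ratios near 0. The test on 4 replicate means called none of them: at an adjusted p under 0.05 in limma it called 0 of 34 members and 0 of all 13592 named genes (0%), and HK2 came closest among the members with an adjusted p of 0.239. Without adjustment, a p under 0.05 was reached by 6 members higher with FSH, where 7.9% of all named genes did so, and by 2 lower, where 8.07% did. All 8 lie above 9 on the log2 intensity scale, where the shares of the 4906 named genes were 12.7% higher and 13.4% lower. The 6 are HK2, PFKFB3, SLC2A1, EGLN1, BNIP3 and NDRG1, and the 2 are PFKM and PGK1.

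In the fit of all 8 arrays with the replicate number as a block and a dye term, which counts the arrays of a dye-swap pair as correlated measurements, HK2 and BNIP3 rose with FSH at adjusted p values of 0.0127 and 0.0417. That makes 2 of 34 members higher, where 2.66% of all named genes and 5.4% of the bright ones were, and 0 lower, where 2.41% and 4.42% were. Without replicate 3 BNIP3 no longer passed, at an adjusted p of 0.0542. The blocked fit of all arrays applies 1 within-replicate correlation, 0.72, to all probes. The ratios of HK2 had an SD of 0.63 between replicates, against a root mean square of 0.026 within pairs. The 2 arrays of its pairs were thus near duplicates, and its SE was 0.18 in that fit, against 0.25 over replicate means. For such genes the blocked p-values, here and below, can be too small for 4 replicates. The ratio had 1 sign in all 4 replicates for 7 members higher with FSH and 3 lower, against 10.7% and 11.6% of all named genes and 13.1% and 14.5% of the bright ones. By its brightest probe, no member had FSH and control levels that did not overlap, where 1.6% of named genes were wholly higher and 1.66% wholly lower with FSH.

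**Figure D1:**
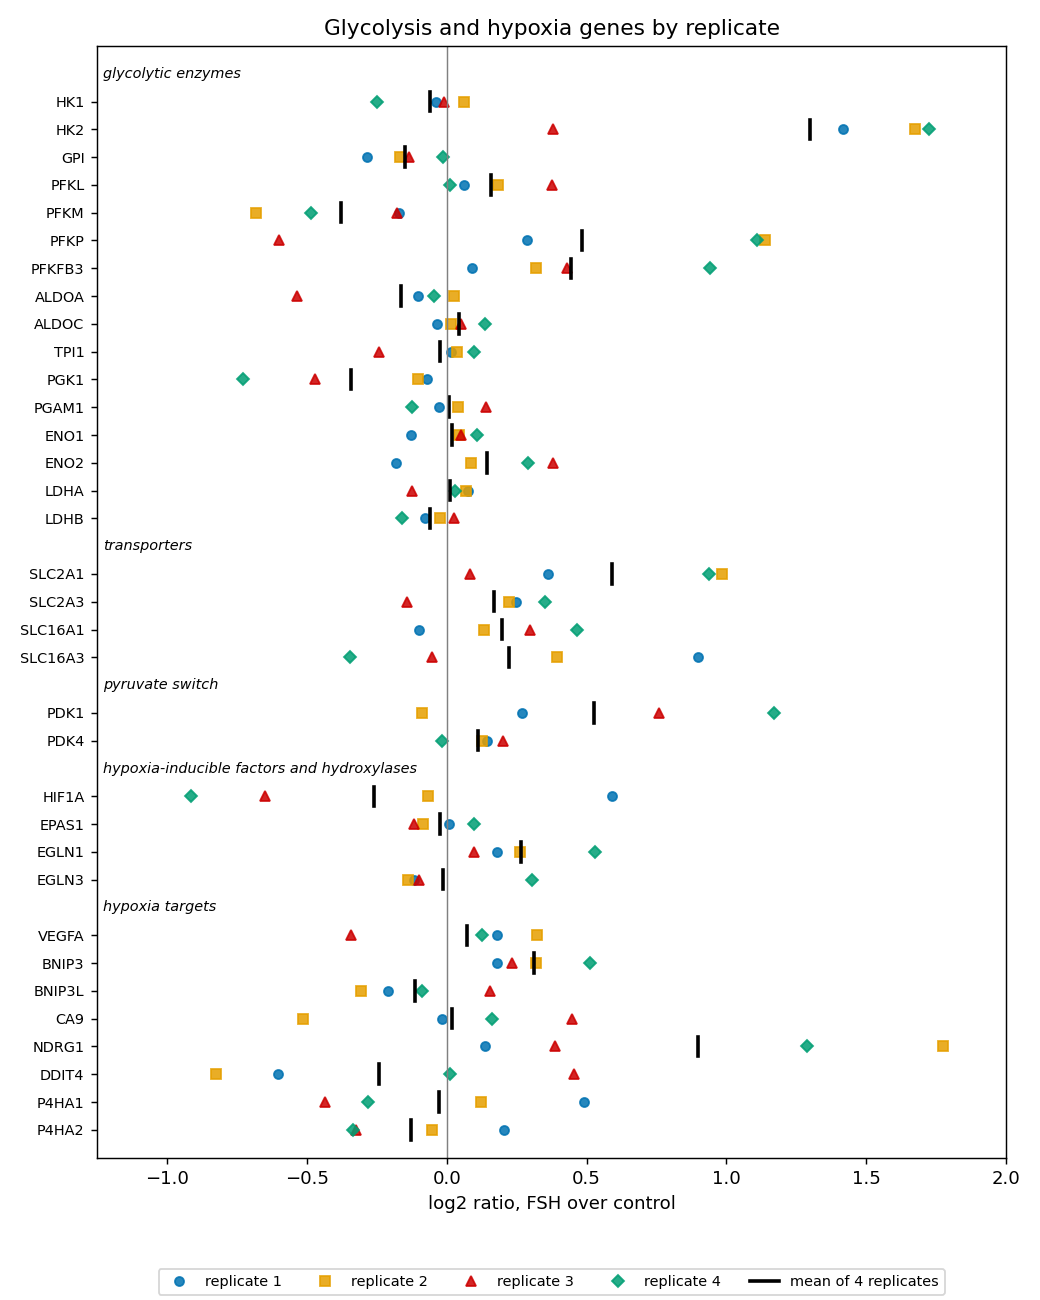
Log2 ratio of FSH over control (horizontal axis) for each of the 34 measured genes, grouped by role, with 1 symbol per replicate and a black bar for the mean of 4 replicates. HK2 lies farthest to the right at a mean of 1.30, its replicate 3 stands apart at 0.38, and most glycolytic enzymes lie close to 0.

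The median ratio over all 34 members was 0.019, against -0.0047 over all named genes, and by replicate it was 0.039, 0.052, 0.039 and 0.097. The members did not lean in 1 direction: 20 had a ratio above 0 and 14 below. By role, the median was 0.010 for the 16 measured glycolytic enzymes, 0.21 for the 4 carriers, 0.32 for the 2 pyruvate dehydrogenase kinases, -0.018 for the 4 HIF and hydroxylase genes and -0.0033 for the 8 HIF targets. The size of a ratio without its sign had a median of 0.15 over the members, against 0.086 over all named genes. Members are bright on average, and among the 4906 named genes above 9 on the log2 intensity scale that median was 0.16, against 0.17 for the 27 members that bright.

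Hexokinases phosphorylate glucose as it enters the cell. The brightest HK2 probe (EMBV3_38588) had levels of 10.96, 11.45, 11.44 and 11.58 in FSH replicates 1 to 4, against 9.55, 9.77, 11.06 and 9.86 in control replicates 1 to 4. The 4 FSH libraries lay close together, and the control library of replicate 3 was the only control near them. The control of replicate 3 was above the FSH library of replicate 1, which is the sole overlap between the groups. The ratios were 1.42, 1.67, 0.38 and 1.72, with a mean of 1.30 ± 0.25 (95% interval 0.65 to 1.95), and all 8 arrays were above 0. Without replicate 3 the mean was 1.60. HK2 had 3 probes, all with positive means, and the dimmer 2 stood at 0.74 ± 0.23 and 0.33 ± 0.09. The probe at 0.74 was at -0.08 in replicate 3, and 6 of its 8 arrays were above 0. HK1, the ubiquitous hexokinase, was at -0.06 ± 0.06, with levels between 10.28 and 10.38 in FSH libraries and between 10.29 and 10.56 in control libraries. The FSH ratio of HK2 exceeded that of HK1 in 4 of 4 replicates, by 1.36 on average (95% interval 0.27 to 2.44).

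Replicate 3 also stood apart outside the pathway. NR4A1, an immediate-early gene of cyclic AMP signalling, had levels of 14.47, 15.26, 15.02 and 15.12 in FSH replicates 1 to 4, against 11.25, 10.89, 14.89 and 11.02 in control replicates 1 to 4. Its control library of replicate 3 thus lay at the level of the FSH libraries, as the HK2 level did in that library. Why replicate 3 differs was not tested. Its omission moved, among others, SLC2A1 to 0.76, NDRG1 to 1.07, SLC16A3 to 0.32, PDK1 to 0.45, PFKM to -0.45 and EGLN1 to 0.32. It also moved DDIT4 to -0.47, VEGFA to 0.21, ALDOA to -0.04, BNIP3L to -0.20 and ENO2 to 0.07. PFKL moved to 0.09, HIF1A to -0.13, P4HA2 to -0.06 and SLC2A3 to 0.27. The sign of CA9 turned, to -0.12, and so did that of P4HA1, to 0.11. The signs of TPI1, PGAM1, EPAS1 and EGLN3, all close to 0, turned as well.

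**Figure D2:**
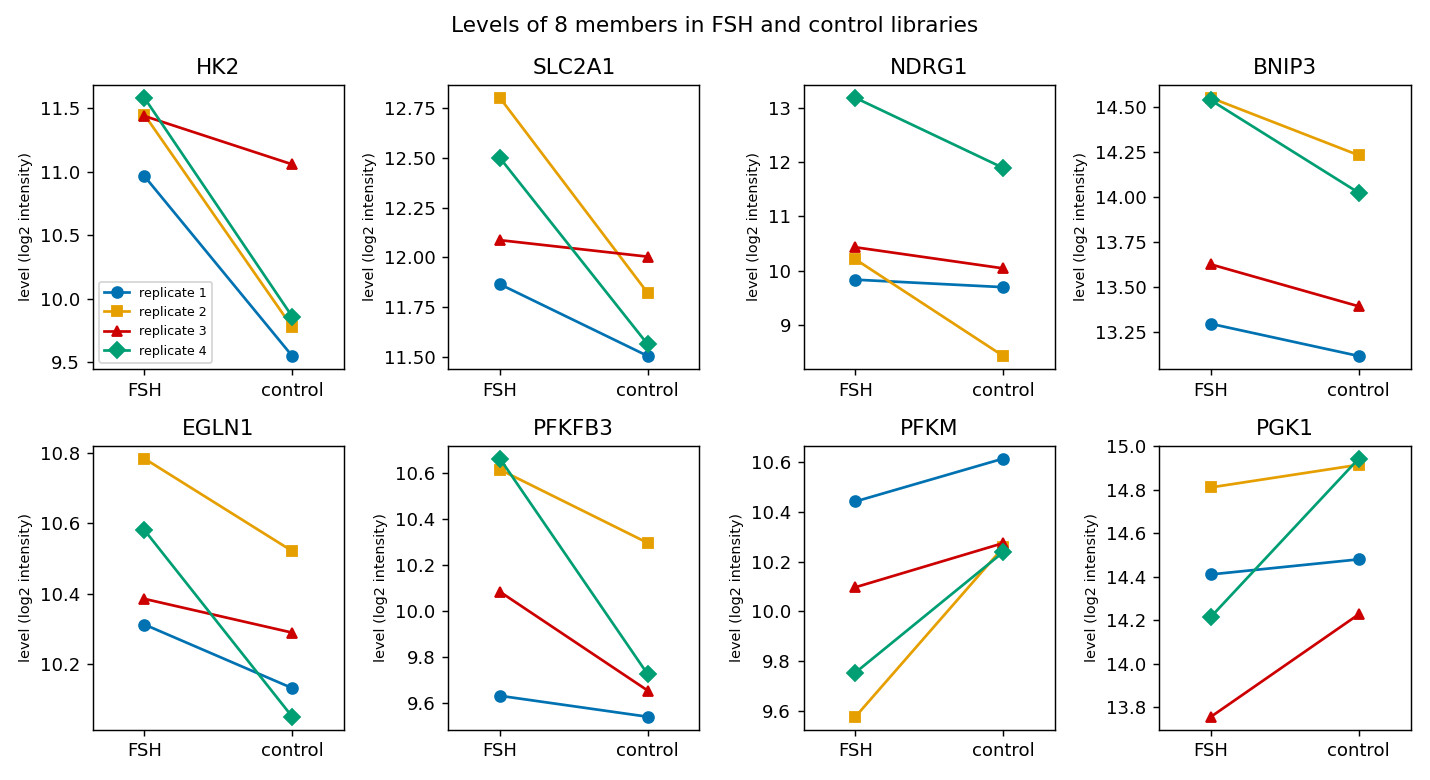
Log2 intensity of 8 genes in FSH libraries (left of each panel) and control libraries (right), with a line joining the libraries of the same replicate number, which share their arrays. HK2 is far higher with FSH in replicates 1, 2 and 4 and little higher in replicate 3, while in NDRG1 replicate 4 lies above the other replicates in both groups.

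Phosphofructokinase is the main control point of glycolysis and comes as liver (PFKL), muscle (PFKM) and platelet (PFKP) subunits. PFKM had levels of 10.44, 9.58, 10.10 and 9.75 in FSH replicates 1 to 4, against 10.61, 10.26, 10.27 and 10.24 in control replicates 1 to 4. It was lower with FSH in each pair and on all 8 arrays, and the groups overlapped through FSH replicate 1. Its mean ratio stood at -0.38 ± 0.10, or 0.769-fold, at an adjusted p of 0.311. PFKL was at 0.16 ± 0.07 with ratios above 0 in every replicate. PFKM lay below PFKL in 4 of 4 replicates, by -0.54 on average (95% interval -0.95 to -0.13).

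PFKP had ratios of 0.29, 1.14, -0.60 and 1.11, so replicate 3 went the other way and the mean of 0.48 ± 0.33 was smaller than the spread between replicates. Without replicate 2 the mean of PFKP was 0.26 and without replicate 4 it was 0.27. Without replicate 3 it was 0.84, and in a setting chosen after seeing the data its adjusted p in the blocked fit without that replicate was 0.0217. In the same fit without replicate 3, HK2 (0.000731) and SLC2A1 (0.0164) were also higher and PFKM (0.0449) was lower. These were 3 members higher and 1 lower, where 5.22% and 5.58% of named genes passed. Above 9 on the log2 intensity scale, 2 of 27 members were higher and 1 lower. There, 10.4% of the 4906 named genes were higher and 10.4% lower.

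PFKFB3 makes fructose 2,6-bisphosphate, the strongest activator of phosphofructokinase. Its levels were 9.63, 10.62, 10.08 and 10.66 in FSH replicates 1 to 4, against 9.54, 10.30, 9.65 and 9.72 in control replicates 1 to 4. Every FSH library exceeded the control of its number, but the cultures of each group varied, and the groups overlapped. On average the ratio was 0.45 ± 0.15, or 1.36-fold, at an adjusted p of 0.355, and 0.28 without replicate 4. It was 0.64 on the arrays with FSH in Cy5 and 0.25 on those with FSH in Cy3.

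PGK1, the first glycolytic enzyme to make ATP, was at 14.41, 14.81, 13.76 and 14.22 in FSH replicates 1 to 4, against 14.48, 14.91, 14.23 and 14.94 in control replicates 1 to 4. Each FSH library was below its control, by little in replicates 1 and 2 and by more in replicates 3 and 4. The mean ratio was -0.34 ± 0.13, or 0.79-fold, at an adjusted p of 0.406, and it was -0.21 without replicate 4. GPI, which isomerises glucose 6-phosphate, was at -0.15 ± 0.06 and below 0 in all 4 replicates, but its second, dimmer probe was at 0.02 ± 0.10.

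The remaining enzymes had means between -0.16 and 0.14. Aldolase, which splits the sugar, is encoded by ALDOA, at -0.16 ± 0.11, and by ALDOC, whose probe was close to background in both groups. TPI1, which interconverts the triose phosphates, was at -0.02 ± 0.07, and PGAM1, the phosphoglycerate mutase, at 0.01 ± 0.06. The enolases ENO1 and ENO2 were at 0.02 ± 0.06 and 0.14 ± 0.11. Of these enzymes none had 1 sign in all 4 replicates.

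LDHA and LDHB are the subunits of lactate dehydrogenase. LDHA was at 15.25, 15.25, 15.13 and 15.22 in FSH replicates 1 to 4, against 15.18, 15.18, 15.26 and 15.19 in control replicates 1 to 4. The groups overlapped and the mean ratio was 0.01 ± 0.05 (95% interval -0.12 to 0.15), with a second probe at 0.01 ± 0.05, and LDHB was at -0.06 ± 0.05. These probes lay near the top of the scanner's range: the LDHA intensity was 91.9% to 97.5% of the brightest gene spot of each array and channel, that of LDHB 71.6% to 90.5%, that of TPI1 77.5% to 99.1% and that of PGAM1 67.9% to 90.2%. Over both LDHA probes, 3 channel values were saturated. HIF1A and BNIP3L reached 90.2% on their brightest array and channel, and PGK1 85.3%. A difference in these 7 genes could be compressed there, and how far was not tested.

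SLC2A1 and SLC2A3 bring glucose into the cell, and SLC16A1 and SLC16A3 carry lactate and pyruvate, SLC16A3 mainly outward. SLC2A1 was at 11.86, 12.80, 12.09 and 12.50 in FSH replicates 1 to 4, against 11.50, 11.82, 12.00 and 11.56 in control replicates 1 to 4. FSH replicates 2 and 4 were the highest libraries, and the control of replicate 3 again lay close to its FSH library. The ratios were 0.36, 0.98, 0.08 and 0.94, with a mean of 0.59 ± 0.18 at an adjusted p of 0.331, and the adjusted p in the blocked fit of all replicates was 0.0573. A dimmer second probe was at 0.25 ± 0.10, and at -0.05 in replicate 3.

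SLC2A3 was at 12.60, 14.51, 13.12 and 14.40 in FSH replicates 1 to 4, against 12.35, 14.28, 13.26 and 14.05 in control replicates 1 to 4. The cultures differed from one another far more than FSH from control, since replicates 2 and 4 were high in both groups. Its mean ratio was 0.17 ± 0.09. The FSH ratio of SLC2A1 exceeded that of SLC2A3 in 4 of 4 replicates, by 0.42 on average (95% interval -0.06 to 0.90).

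SLC16A3 had ratios of 0.90, 0.39, -0.05 and -0.35, so its mean of 0.22 ± 0.22 covers both directions. SLC16A1 was at 0.20 ± 0.10 with replicate 1 below 0, and its dimmer probes were at -0.04 ± 0.09 and 0.08 ± 0.11. The median of the 4 carriers by replicate was 0.30, 0.31, 0.016 and 0.41.

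PDK1 and PDK4 phosphorylate pyruvate dehydrogenase and so keep pyruvate from the mitochondrial route. The brightest PDK1 probe was at 8.95, 9.12, 9.38 and 11.50 in FSH replicates 1 to 4, against 8.68, 9.21, 8.62 and 10.33 in control replicates 1 to 4. Replicate 4 was far above the other cultures in both groups, as it was for PTPRC and DES but not for CD3E, LYZ, ACTA2 or CNN1. The part of leukocytes or other cell types in this level was not tested. Over the replicates the ratio was 0.53 ± 0.22, and 0.31 without replicate 4. The other tested probes of PDK1 did not share it, with means of -0.02 ± 0.08 and -0.05 ± 0.06. Nor did they share the height of replicate 4 in both groups. The second probe was highest in replicate 4 with FSH, at 9.81, but among controls in replicate 2, at 9.93 against 9.66 in replicate 4. The third probe was highest in replicate 2 of both groups, at 7.56 with FSH and 7.47 in control. PDK4 was at 0.11 ± 0.05.

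**Figure D3:**
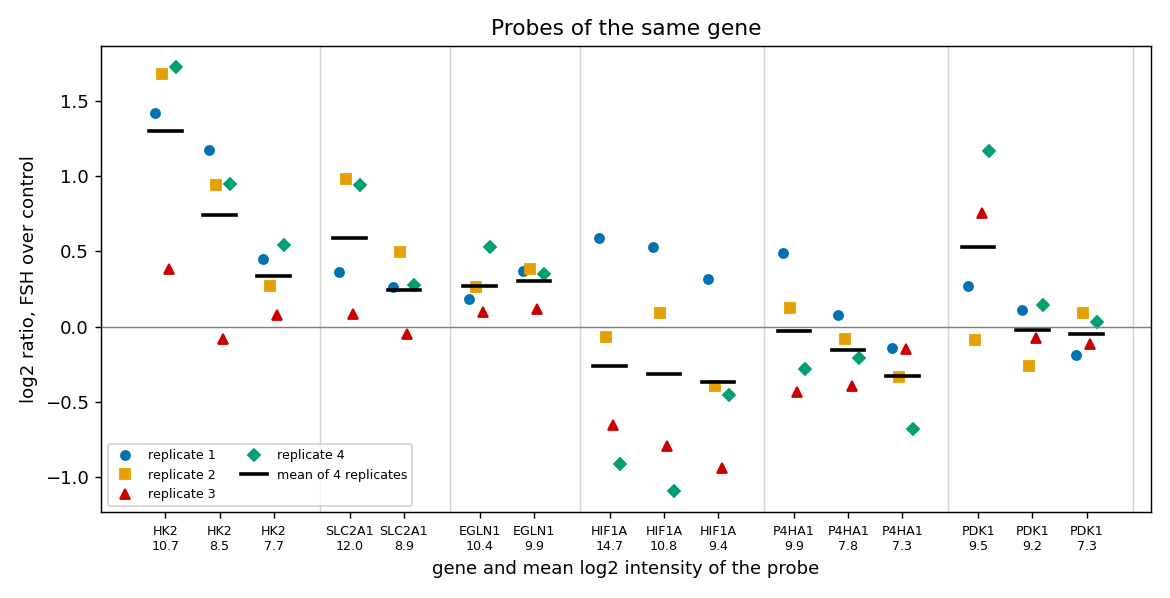
Log2 ratio of FSH over control (vertical axis) of every tested probe of 6 genes, with 1 symbol per replicate, a bar for the mean of 4 replicates, and the probe's mean log2 intensity under its name. All probes of HK2, SLC2A1 and EGLN1 have positive means and all probes of HIF1A negative ones, while the brightest PDK1 probe at 0.53 stands alone among its 3 probes.

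HIF1A encodes the oxygen-regulated subunit of the factor, whose protein rather than transcript is the usual point of control. Its brightest probe was at 14.96, 14.83, 14.14 and 14.18 in FSH replicates 1 to 4, against 14.37, 14.90, 14.79 and 15.10 in control replicates 1 to 4. FSH was above control in replicate 1, close to it in replicate 2 and below it in replicates 3 and 4. The ratios of 0.59, -0.07, -0.65 and -0.91 gave a mean of -0.26 ± 0.27, with no difference beyond the spread between replicates. The other probes had means of -0.32 ± 0.30 and -0.37 ± 0.21, and on all 3 probes replicate 1 was above 0 and replicates 3 and 4 were below. EPAS1, which encodes HIF-2α, was close to background in both groups, at -0.02 ± 0.05.

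EGLN1 and EGLN3 encode the hydroxylases PHD2 and PHD3, which mark HIF for degradation. EGLN1 was at 10.31, 10.78, 10.39 and 10.58 in FSH replicates 1 to 4, against 10.13, 10.52, 10.29 and 10.05 in control replicates 1 to 4. It was higher with FSH in each pair and on 8 of 8 arrays, and the groups overlapped. The mean ratio was 0.27 ± 0.08, or 1.20-fold, at an adjusted p of 0.339, and the second probe had 0.30 ± 0.06. The second probe was at 9.94, 10.26, 9.96 and 10.12 in FSH replicates 1 to 4, against 9.58, 9.88, 9.84 and 9.78 in control replicates 1 to 4, with no overlap between the groups. In the blocked fit the second probe passed with an adjusted p of 0.0302 and the brighter one did not, at 0.0831. The second probe was at 0.15 with FSH in Cy5 and 0.45 with FSH in Cy3, with 7 of 8 arrays above 0. Its call thus rests on a mean of unequal orientations, as that of BNIP3 does.

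EGLN3, itself a HIF target, was at 11.27, 8.80, 8.96 and 8.94 in FSH replicates 1 to 4, against 11.39, 8.94, 9.05 and 8.64 in control replicates 1 to 4. Replicate 1 was far above the other cultures in both groups, and in that replicate the fibroblast and stroma sum was also highest, whose part was not tested. The ratio of EGLN3 was -0.01 ± 0.09. The FSH ratio of EGLN1 exceeded that of EGLN3 in 4 of 4 replicates, by 0.28 on average (95% interval 0.13 to 0.42).

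BNIP3 and BNIP3L are HIF targets that direct mitochondria to autophagy. BNIP3 was at 13.30, 14.55, 13.63 and 14.54 in FSH replicates 1 to 4, against 13.12, 14.23, 13.39 and 14.02 in control replicates 1 to 4. Replicates 2 and 4 were high in both groups, and within each number the FSH library was the higher. The mean ratio was 0.31 ± 0.07, or 1.24-fold, with ratios from 0.18 to 0.51. It was 0.11 on the arrays with FSH in Cy5 and 0.51 on those with FSH in Cy3, so the call in the blocked fit rests on a mean of unequal orientations. BNIP3L was at -0.11 ± 0.09, and BNIP3 exceeded it in 4 of 4 replicates, by 0.42 on average (95% interval 0.02 to 0.83).

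NDRG1, a HIF target and stress-response gene, was at 9.84, 10.21, 10.43 and 13.18 in FSH replicates 1 to 4, against 9.70, 8.44, 10.05 and 11.89 in control replicates 1 to 4. Replicate 4 exceeded the other cultures in both groups, and control replicate 2 was the lowest library. All 4 ratios and all 8 arrays were above 0, from 0.14 in replicate 1 to 1.78 in replicate 2, and the mean was 0.90 ± 0.31 at an adjusted p of 0.366. In replicate 4 the FSH and control libraries of NDRG1, PTPRC, DES and the brightest PDK1 probe were each the highest of their group. Those of CD3E, LYZ, ACTA2 and CNN1 were not. The part of leukocytes or other cell types in the NDRG1 level was not tested. Without replicate 4 the mean of NDRG1 was 0.77.

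DDIT4, an inhibitor of mTORC1 signalling, had ratios of -0.60, -0.83, 0.45 and 0.01, with a mean of -0.24 ± 0.23. Its mean was 0.03 with FSH in Cy5 and -0.52 with FSH in Cy3. VEGFA was at 0.07 ± 0.12, with replicate 3 below 0 and the others above, and its second probe was at -0.10 ± 0.08. CA9, a carbonic anhydrase induced by hypoxia in tumours, was at 0.02 ± 0.16 by its only tested probe. The collagen prolyl hydroxylases P4HA1 and P4HA2 were at -0.03 ± 0.17 and -0.13 ± 0.11, and all of their probes had means below 0, the lowest at -0.32 ± 0.11. By their brightest probes, none of these 5 genes kept 1 sign over the replicates, whereas the P4HA1 probe at -0.32 was below 0 in all 4.

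**Figure D4:**
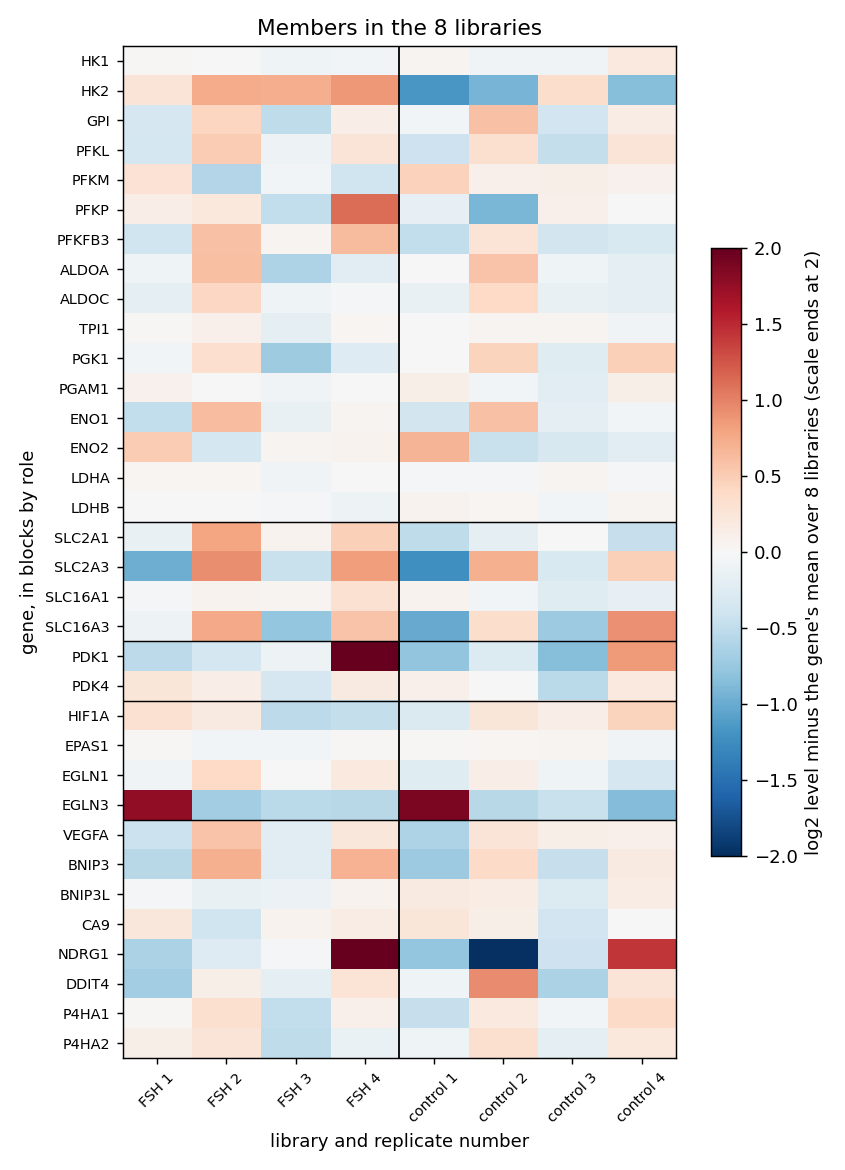
Log2 level of each of the 34 genes minus its mean over the 8 libraries (colour), with FSH libraries left of control libraries and genes in blocks by role. Columns of the same number resemble each other in replicates 1, 2 and 4 and less so in replicate 3. EGLN3 is high in replicate 1 of both groups. NDRG1 and PDK1, the latter shown by its brightest probe, are high in replicate 4 of both groups. HK2 separates 4 FSH libraries from control replicates 1, 2 and 4.

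The cultures also differed from one another in the levels of these genes. The standard deviation of the pair mean, the average of the FSH and control level of a replicate, had a median of 0.33 over the 34 members, against 0.13 over all named genes and 0.20 over the named genes above 9 on the log2 intensity scale. For 23 members (67.6%, against 63.2% of named genes) it exceeded the size of the FSH ratio. It was 1.43 for NDRG1, 1.22 for EGLN3, 0.97 for the brightest PDK1 probe and 0.90 for SLC2A3. HK2 was among the genes whose ratio exceeded it, at 1.30 against 0.41. FSH and control libraries of the same number share both arrays, so a resemblance within a number can come from the culture or from the array, which cannot be told apart.

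Within the families, 14 pairs of isoforms or partners were compared by the difference of their FSH ratios in each replicate. With 4 replicates the exact sign-flip permutation test, two-sided, cannot go below p = 0.125, and with adjustment over the 14 pairs the lowest value was 0.35, so no pair could pass. The difference had 1 sign in 4 of 4 replicates for 5 pairs, those of HK2 and HK1, PFKM and PFKL, SLC2A1 and SLC2A3, EGLN1 and EGLN3, and BNIP3 and BNIP3L. The other 9 pairs had mixed signs, among them PFKP minus PFKL at 0.32 ± 0.95 (SD), LDHA minus LDHB at 0.07 ± 0.15 and HIF1A minus EPAS1 at -0.24 ± 0.69. All intervals of pair differences assume normally distributed replicates. Those of the 3 pairs just named reach from -1.19 to 1.83, from -0.17 to 0.32 and from -1.33 to 0.86, so the test does not show that such partners respond alike.

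Second probes gave a further view within the same libraries. There were 21 tested second probes in 15 genes, and 15 of them had a mean of the same sign as the brightest probe of their gene. The 6 that had the other sign belong to HK1, GPI, SLC16A1, PDK1 (2 probes) and VEGFA. Which transcripts each probe detects was not analysed here.

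The orientation of the dyes moved many of these ratios. A dye term passed an adjusted p under 0.05 in limma for 23 of 34 members, against 59.1% of all named genes. The mean of the 4 arrays with FSH in Cy5 and that of the 4 arrays with FSH in Cy3 had opposite signs for 14 members (41.2%, against 51% of named genes). HK2 was at 1.27 with FSH in Cy5 and 1.32 with FSH in Cy3, and PFKM at -0.43 and -0.33, and neither dye term passed. NDRG1 was at 1.00 with FSH in Cy5 and 0.80 with FSH in Cy3, and its dye term passed at an adjusted p of 0.0138 in limma. ALDOA was at -0.40 with FSH in Cy5 and at 0.07 with FSH in Cy3. The orientation coincides with the slide number in the files, so dye and slide cannot be told apart.

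**Figure D5:**
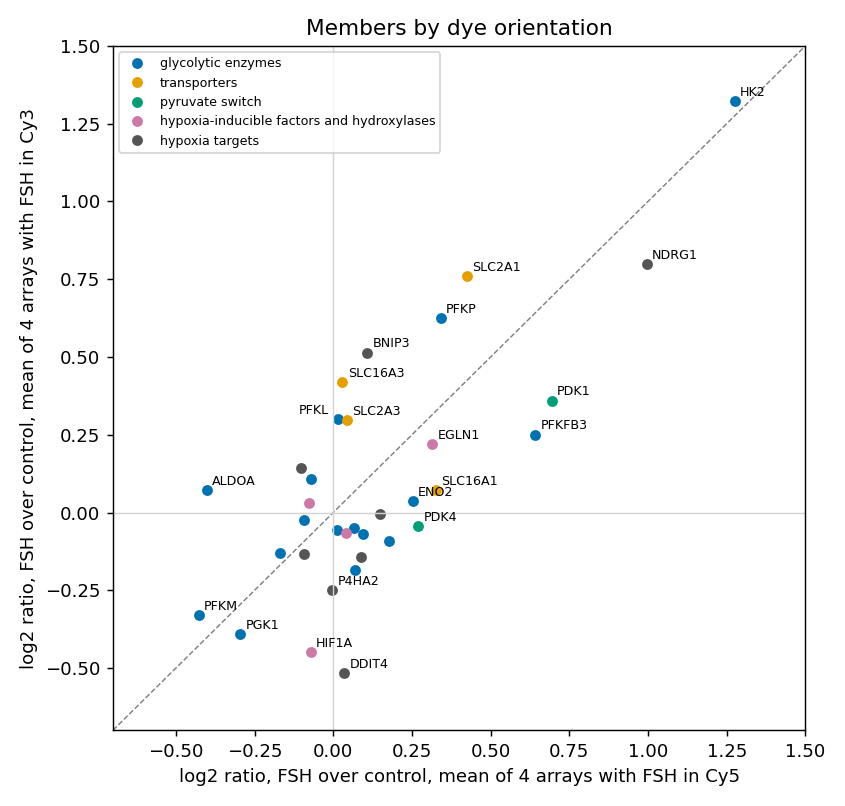
Mean log2 ratio of FSH over control on the 4 arrays with FSH in Cy5 (horizontal axis) and on the 4 arrays with FSH in Cy3 (vertical axis) for 34 genes, coloured by role, with a dashed line of equality. HK2 lies on the line at 1.27 and 1.32, BNIP3 above it at 0.11 and 0.51, and PFKFB3 below it at 0.64 and 0.25.

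A wider list of 87 genes of the same pathways, none of them a member, held 69 measured genes with a median ratio of 0.019. Over the replicate means limma called 0 of them at an adjusted p under 0.05. An unadjusted p below that value was reached by 4 of 69 higher and 5 lower with FSH. Of all named genes, 7.9% and 8.07% did so. In the blocked fit 2 rose and 4 fell, again where 2.66% and 2.41% of named genes did.

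Among the glycolytic regulators, BPGM, which makes 2,3-bisphosphoglycerate, was at 9.26, 8.80, 9.22 and 9.24 in FSH replicates 1 to 4, against 9.82, 9.68, 9.61 and 9.49 in control replicates 1 to 4. All FSH libraries were below all control libraries, and the mean of -0.52 ± 0.11 fell in the blocked fit at an adjusted p of 0.0286 in limma. PFKFB2, a relative of PFKFB3 with the same reaction, was at -0.58 ± 0.11 and fell in the blocked fit (adjusted p 0.033), in the opposite direction to the PFKFB3 value. HK3, a hexokinase abundant in myeloid cells, was at 10.97 in FSH replicate 4 and 9.65 in control replicate 4, with all other libraries between 6.90 and 7.53. Replicate 4 thus stood out for HK3 as it did for PTPRC and DES, but not for CD3E, LYZ, ACTA2 or CNN1. The glucose carrier SLC2A8 was at 0.29 ± 0.07, with all 8 arrays above 0.

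Among the HIF regulators and further targets, IGFBP3, an insulin-like growth factor binding protein, had the widest difference, with levels of 9.69, 10.09, 10.51 and 10.83 in FSH replicates 1 to 4, against 8.05, 7.27, 10.19 and 8.09 in control replicates 1 to 4. Its control of replicate 3 lay among the FSH libraries, as for HK2, and the mean was 1.88 ± 0.46, with an adjusted p of 0.0241 in the blocked fit of limma, and 2.40 without replicate 3. CITED2, which competes with HIF for its co-activators, was at -0.84 ± 0.23, and CUL2, the scaffold of the ubiquitin ligase that destroys HIF, at -0.50 ± 0.14. Both fell in the blocked fit, at adjusted p values of 0.0417 and 0.0441. ELOC, the elongin C subunit of that ligase, rose in the blocked fit, at 0.25 ± 0.04 with ratios from 0.18 to 0.29. That call was lost without replicate 3 (adjusted p 0.0767), and ELOC was at 0.39 with FSH in Cy5 and 0.12 with FSH in Cy3. The peptide hormone ADM was at -0.47 ± 0.13, with 3 replicates below 0 and replicate 3 close to 0.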

How the data were processed

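The authors deposited 1 scanner table per array with the raw intensity of each of 45220 spots at 532 nm (Cy3) and 635 nm (Cy5) and its local background, per the file headers, with no normalisation of these columns. The sources used here do not give a genome build for the probes, so no coordinates are printed. The members and all gene lists were chosen with earlier results of these data known.

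Spot means were background-corrected with normexp (median local background, offset 50), log2 ratios were loess-normalised within arrays signed as FSH over control and averaged over the 2 same-numbered arrays of opposite dye to 1 replicate (limma 3.58.1 in R 4.3.3). Levels were taken after Aquantile scaling. Testing required a signal above percentile 95 of the 153 negative controls in either channel on 4 or more of the 8 arrays, which 36531 probes had. The two-sided test of the mean ratio against 0 used lmFit and eBayes, and p-values were adjusted over these probes (Benjamini-Hochberg, threshold 0.05). A gene stands for its brightest tested probe, and the counts over named genes use 1 probe per gene. The model was tested on simulated data whose replicates varied less than those here, so that test does not show what these arrays could detect. No member had only a bound for its ratio. Gene symbols come from the platform annotation, which names 21790 probes and can be old.

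All 36 members are named, with the sign of their other probes. Of the 87 other pathway genes, those at an unadjusted p under 0.05 are named. The blocked fit uses all 8 arrays, a dye term and a random block for the replicate number (duplicateCorrelation). Arrays were paired by the replicate number in their labels and the stated dye swap. Across probes, arrays of the same number and opposite dye correlated at 0.352 to 0.61, and those of different number and opposite dye at -0.398 to 0.285. The replicate number coincides with the position of the array on its slide. The labels' protocol mentions 8 biological replicates, possibly the 4 FSH and 4 control cultures counted together. Alternatives covered background correction, normalisation, the filter on dim probes, a variance trend, the block, each dye orientation, each replicate left out and the mean over the probes of a gene. Figures were drawn with matplotlib 3.10.9 and pandas 2.3.3 in Python 3.11.15.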

Additional observations from a re-analysis of the deposited data

Results flagged for a closer look

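In 68 groups of 4 libraries, 1 FSH group and 1 control group for each of the 34 genes, 6 held a library whose gap to its nearest neighbour was large against the range of the group. Chance marks about 5% of such groups. In replicate 1, EGLN3 was at 11.27 in the FSH library, against 8.80 to 8.96 in the other FSH libraries, and at 11.39 in the control library, against 8.64 to 9.05 in the other control libraries. The FSH library of replicate 4 had PDK1, by its brightest probe, at 11.50, with the other FSH libraries between 8.95 and 9.38. The control library of replicate 1 had PFKM at 10.61, with the other control libraries between 10.24 and 10.27. The control library of replicate 2 had ALDOC at 7.36, with the others between 6.78 and 6.82. The control library of replicate 3 had BNIP3L at 14.53, with the others between 14.95 and 14.98. The 2 EGLN3 values share the arrays of their replicate.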

How the results depend on the processing

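The count of members past the adjusted threshold was 0 over replicate means and stayed 0 without background correction, with an offset of 16, with median centring, with no filter or a stricter filter on dim probes, with a variance trend, with the mean over the probes of a gene, on the arrays with FSH in Cy5 alone and with each replicate left out (0 to 0). The count of probes, which the mean over probes does not give, was likewise 0 under these settings other than the arrays with FSH in Cy5 alone, where 1975 passed. With the replicate number as a block and a dye term 1244 probes and 2 members passed, and without the dye term 1426 probes and 2 members, HK2 and PFKM. On the arrays with FSH in Cy3 alone 409 probes and 1 member passed. Within 1 orientation FSH and control always differ in dye, so FSH and dye cannot be told apart in these single-orientation counts. With the block and replicate 3 left out, a setting chosen after seeing the data, 2610 probes and 4 members passed. The blocked fits treat the arrays of a pair as correlated measurements, with a within-replicate correlation of 0.72 with and 0.175 without the dye term. The median ratio of the members was 0.019, 0.054 on the arrays with FSH in Cy5 alone, 0.020 to 0.054 with 1 replicate left out, and 0.054 in the blocked fit without replicate 3. The median of the glycolytic enzymes, 0.010, was -0.037 on the arrays with FSH in Cy3 alone. The sign of the ratio turned for 7 of 34 genes on the arrays of each dye orientation, for 3, 4, 6 and 4 genes without replicates 1 to 4, and for at most 3 genes under each of the other settings with all replicates. HK2 kept its sign under all 16 alternatives, between 0.79 and 1.60. The cause of these differences was not tested. For dim genes such as ALDOC and EPAS1, closeness to background limits what could be seen. For LDHA, LDHB, TPI1, PGAM1, HIF1A, BNIP3L and PGK1 the top of the scanner range could do so, which was not tested.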
